A study of Mus musculus with 8 samples.

Results

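The common gamma-chain cytokine receptors, the STAT5 transcription factors and the SOCS feedback inhibitors were followed as 10 genes in 8 RNA sequencing libraries of mouse Treg cells. They are Il2ra, Il2rb, Il2rg, Il4ra, Il21r, Stat5a, Stat5b, Cish, Socs1 and Socs2, chosen by name from 53465 gene identifiers, and all 10 had reads in every library. Each condition was 1 library, so that no difference below has a replicate check or a p-value. Treg cells of mice aged 3–4 weeks were taken from spleen and lymph nodes. The study's methods describe a magnetic removal of cells without CD4, then a sort by CD4, CD25 and YFP. The mice are given as C57BL/6, but the strain with the reversible Brg1 allele (ΔR) was made on a mixed background. It had 3 generations of backcross to C57BL/6, fewer than the other strains. The WT genotype does not include ΔR, and the part of the background in the differences was not tested. In the total Treg experiment, the WT library came from R26 CAG-FlpoER, BrgF/+, Foxp3 YFP-Cre/+ mice, so that this control carried the Cre and 1 floxed allele of Brg1, the gene of the chromatin remodeling ATPase BRG1. The mosaic females, healthy in the study's words, were R26 CAG-FlpoER, BrgF/ΔR, and X inactivation of the Cre allele gave them both a Brg1-sufficient library (Foxp3 +/+ by the label, YFP-negative by the study) and a Brg1-deleted library (Foxp3 YFP-Cre). The rKO1 mice, the severely inflamed class of reversible knockouts, are given by the labels as R26 CAG-FlpoER, BrgF/ΔR, Foxp3 YFP-Cre/YFP-Cre. Each rKO1 library held reads of Y-linked genes, however, and males have a single copy of the X-linked Foxp3 locus, so that this genotype cannot hold for all of the mice. They gave an untreated Brg1-deleted library and, on Day 7 after tamoxifen (TAM), a Brg1-deleted library and a Brg1-reexpressed library (BrgF/+ after excision of the gene trap). By the study, a low TAM dose restored Brg1 in only part of the Treg cells, and the subsets were told apart by GFP. GFP is made by the gene trap and, by the study, had substantially faded by Day 7 in cells that reexpressed Brg1. In the aTreg experiment, activated Treg cells (CD44hi CD62Llo) of rKO1 mice on Day 7 after TAM gave 2 libraries, titled Brg1-deleted and Brg1-reexpressed. For the one titled Brg1-deleted, the description reads BrgF/F and the column header reads WT, so that the sources differ on its genotype. The one titled Brg1-reexpressed is described as BrgF/+. All mice thus carried FlpoER driven by the ubiquitous CAG promoter, and Cre was driven by Foxp3. The number of mice behind a library is not given in the sources used here.

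The gamma chain, encoded by Il2rg, is shared by the receptors for IL-2, IL-4, IL-7, IL-9, IL-15 and IL-21. Binding of a ligand brings together the kinases JAK1 and JAK3 on the receptor tails, which phosphorylate STAT5A and STAT5B, and these enter the nucleus and bind DNA at TTCNNNGAA elements. Among their targets are Cish, Socs1 and Socs2, whose SH2-domain proteins dampen the same receptors, and Il2ra itself. Treg cells make little IL-2, depend on IL-2 from other cells, and are known for a high level of the IL-2 receptor alpha chain CD25.

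Levels are given as scaled FPKM, that is, the deposited FPKM (fragments divided by exon length and library total) rescaled by library factors common to an experiment. Libraries held between 15387114 and 22816353 recovered reads, and the 10 genes had between 573 and 30619 reads each. An interval in parentheses is the exact 95% binomial interval that the reads of both libraries allow, and it covers counting error alone. A gene entered a comparison with at least 5 CPM (counts scaled to a common library total) in either library and was counted when it differed at least 2-fold. Smarca4, the Brg1 gene, was at 14.4 in the WT library, 12.6 in the mosaic Brg1-sufficient library and 9.50 in the Brg1-reexpressed library. Its level was 7.71 in mosaic Brg1-deleted cells, 7.20 in the untreated rKO1 library and 5.91 in the Brg1-deleted library after TAM, below each of the 3 Brg1-sufficient ones. In aTreg cells Smarca4 was at 11.0 in the library labelled Brg1-deleted and at 9.17 in the library labelled Brg1-reexpressed, which goes against the labels, so that all aTreg directions below hold for the labels only. Some other genes differed between these libraries in the direction they had in the rKO1 pair, and some in the opposite one. From the library labelled Brg1-deleted to the one labelled Brg1-reexpressed, Gzmb went from 50.9 to 622, Prf1 from 1.64 to 3.81 and Prdm1 from 1.70 to 2.70, and these 3 were picked after their values were seen. Il4 went from 2.03 to 7.45 here but from 39.2 to 10.7 in the rKO1 pair. Il2 and Il21 were likewise higher here and lower there, and these genes too were picked afterwards. Here, however, both were below 5 CPM in both libraries and so not tested, with 13 and 46 reads of Il2 and 5 and 30 of Il21. Reads are counted over the whole gene, and transcripts that lack the floxed exons still count. The Treg and CD4 T cell markers Foxp3, Ikzf2, Ctla4, Tnfrsf18, Cd4 and Cd3e were above the floor of 3 reads in every library. Their levels varied, however, with Cd3e, a chain of the T cell receptor complex, at 175 and 155 in the mosaic Brg1-sufficient and Brg1-deleted libraries and 96.6 in WT but at 47.7, 26.7 and 29.0 in the untreated, Brg1-deleted and Brg1-reexpressed rKO1 libraries. The part of this in the differences between mosaic, WT and rKO1 libraries was not tested.

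Cish, at chr9:107296026-107302784 on the plus strand of GRCm38, was the only 1 of the 8 genes with a promoter window in the RefSeq table whose window held the STAT5 element TTCNNNGAA. The window covers 250 bases before to 50 after the RefSeq start, and 8.30% of 32851 such windows held the element, which reads the same on both strands. Cish held it at 2 places, and the sequence is printed because it shows both copies side by side. The stretch below is chr9:107296559-107296678 of GRCm38.p6, with the RefSeq transcript starting at 107296659, inside the longer Cish gene of GENCODE, and the elements are in capitals.
Cish: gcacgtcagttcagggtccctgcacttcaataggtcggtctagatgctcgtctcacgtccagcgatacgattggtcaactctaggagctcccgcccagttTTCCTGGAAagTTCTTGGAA
The copies are TTCCTGGAA at bases 1 to 9 of the transcript and TTCTTGGAA at bases 12 to 20. A match is a description of the letters only, and windows for Il2rb and Socs2 were not analysed here.

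No member reached 2-fold in any of the 3 comparisons that set a library with BRG1 against a library without it. This was 0 of 10 genes in mosaic females, where 6.32% of 10161 tested genes reached 2-fold, 0 of 10 in rKO1 mice after TAM, where 12.8% of 10370 did, and 0 of 10 between the aTreg libraries, where 6.45% of 10035 did. The median log2 fold change of the 10 genes, with the Brg1-sufficient library over the Brg1-deleted one, was -0.20 in mosaic females, beside 0.03 over all tested genes. In rKO1 mice it was -0.26 beside 0.06, and in aTreg cells it was -0.37 beside -0.06. The median size of the difference, without its sign, was 0.31 in mosaic females, 0.29 in rKO1 mice and 0.37 in aTreg cells, against 0.29, 0.38 and 0.29 over all tested genes. The size of the differences was thus near that of other genes in mosaic females and smaller in rKO1 mice, and larger than it in aTreg cells. In bulk libraries, fewer cells of a type and less RNA per cell cannot be told apart. The mosaic libraries differ in Cre, in the Foxp3 allele expressed and in YFP as well as in BRG1. YFP is made from the Foxp3 locus, so that the YFP-negative cells were sorted without this mark of Foxp3, unlike their partner. The part of each was not tested.

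**Figure D1:**
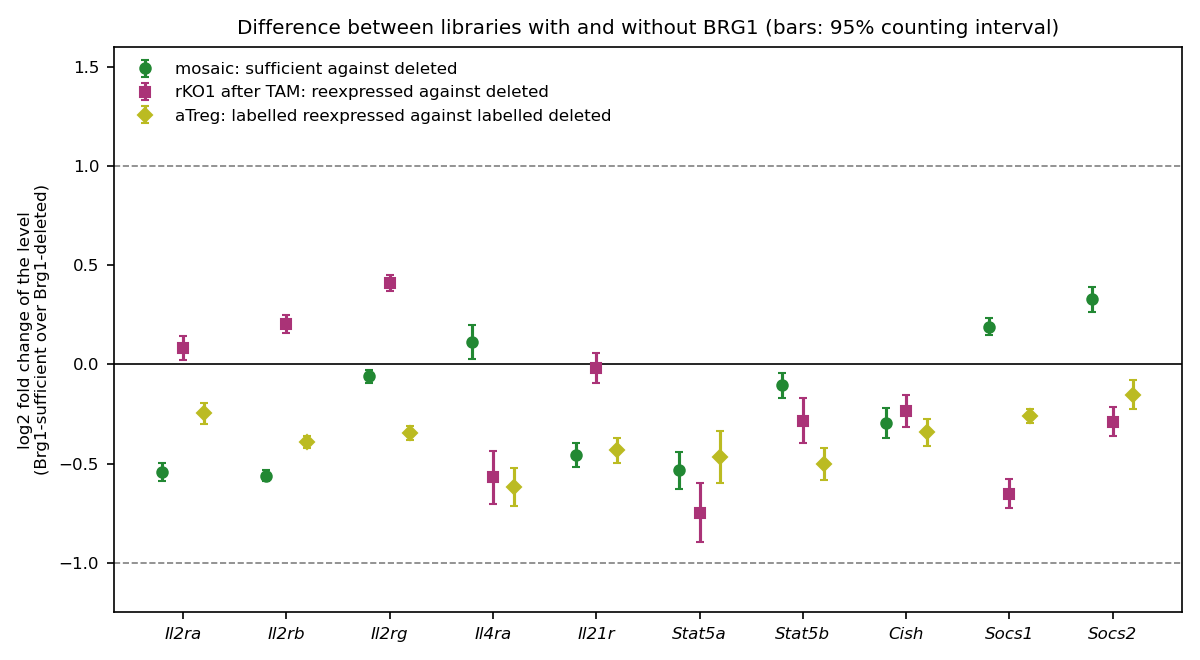
Log2 fold change of the level of each of the 10 genes, with the library labelled Brg1-sufficient or Brg1-reexpressed over the one labelled Brg1-deleted, in mosaic females (circles), rKO1 mice after TAM (squares) and aTreg cells (diamonds); bars are 95% counting intervals, dashed lines mark 2-fold. Points lie between -0.75 and 0.41, none past 2-fold, and the signs of Il2ra and Il2rb in rKO1 mice and of Il4ra in mosaic females turn when libraries are scaled by total reads.

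The IL-2 receptor is made of 3 chains. Il2ra (chr2:11642807-11693193, plus strand) encodes the alpha chain CD25, which raises the affinity for IL-2 and does not signal by itself. Il2ra was at 51.2 in the WT library, 54.1 in the mosaic Brg1-sufficient library, 78.7 in its Brg1-deleted counterpart, 63.3 in the untreated rKO1 library, 45.2 in the Brg1-deleted library after TAM and 47.8 in the Brg1-reexpressed library. The mosaic Brg1-deleted library was the highest, at 1.46-fold over its Brg1-sufficient partner (interval 1.41 to 1.5). In rKO1 mice after TAM the difference went the other way and was small, 1.06-fold higher with BRG1 (1.01 to 1.1), and by total reads alone it turned to a log2 fold change of -0.27. The CD25 protein was part of the sort gate, so that the level of Il2ra was measured in cells already selected for it.

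Il2rb (chr15:78479256-78495271, minus strand) encodes the beta chain, the signaling chain that IL-2 shares with IL-15. Its level ranged more widely than that of any other member over the 6 total Treg libraries, from 126 in the WT library to 479 in the mosaic Brg1-deleted library, or 3.79-fold. The other levels were 325 in the mosaic Brg1-sufficient library, 182 in the untreated rKO1 library, 159 in the Brg1-deleted library after TAM and 183 in the Brg1-reexpressed library. Both mosaic libraries thus lay above the other 4, whatever their BRG1 status. Within mosaic females Il2rb was 1.47-fold higher in the Brg1-deleted library (1.45 to 1.5). Within rKO1 mice it was 1.15-fold higher in the Brg1-reexpressed library (1.12 to 1.19), which turned to a log2 fold change of -0.15 by total reads alone.

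Il2rg (chrX:101264378-101268255, minus strand), the gamma chain that all these receptors share, varied least of the 10, 1.39-fold over the 6 total Treg libraries. Its levels were 242 in the WT library, 277 and 289 in the mosaic Brg1-sufficient and Brg1-deleted libraries, 212 in the untreated rKO1 library, 207 in the Brg1-deleted library after TAM and 275 in the Brg1-reexpressed library. Here the 2 Brg1-deleted rKO1 libraries were the lowest and could not be told apart by counting error (by total reads alone the untreated one was above WT, at a log2 fold change of 0.10), and the Brg1-reexpressed library was 1.33-fold above its partner (1.29 to 1.37). In mosaic females the 2 libraries differed 1.04-fold (1.02 to 1.07, higher in the Brg1-deleted one). Il2rg is on the X chromosome and the libraries differed in sex. Reads of 4 Y-linked genes were 0 in the WT and both mosaic libraries and 4155, 2083 and 1416 in the untreated, Brg1-deleted and Brg1-reexpressed rKO1 libraries. Xist, the RNA of the inactive X, had 10 reads in the untreated rKO1 library but 934 and 762 in the rKO1 libraries after TAM, and between 875 and 3990 in the WT and mosaic libraries. Both libraries after TAM thus held RNA of both sexes, and the part of this in the levels was not tested. In addition, 30.5% of the exon bases of Il2rg lie in the overlapping locus Gm20489, and the counting could assign those reads to either.

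The ratio of 2 chains within a library does not depend on library scaling. Il2rb per Il2rg, both in FPKM, was 0.522 in the WT library (0.505 to 0.540) and 1.17 in the mosaic Brg1-sufficient library (1.15 to 1.20). It reached 1.66 in the mosaic Brg1-deleted library (1.63 to 1.69), was 0.861 in the untreated rKO1 library (0.836 to 0.886), 0.769 in the Brg1-deleted library after TAM (0.745 to 0.793) and 0.666 in the Brg1-reexpressed library (0.647 to 0.686). In both pairs the Brg1-deleted library had more beta chain RNA per gamma chain RNA, but the 2 Brg1-sufficient controls, WT and mosaic, lay further apart than either pair. Il2ra per Il2rb was 0.405 in the WT library, 0.166 and 0.164 in the mosaic libraries and between 0.261 and 0.347 in the rKO1 libraries. The alpha to beta balance of the mosaic pair thus differed by less than counting error while it separated that pair from the other 4 libraries.

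Il4ra and Il21r are neighbors on chromosome 7, at chr7:125552120-125579474 and chr7:125603429-125633570, both on the plus strand. Il4ra encodes the chain that gives the gamma chain its specificity for IL-4 and signals mainly through STAT6. It was at 15.1 in the WT library, 17.9 in the mosaic Brg1-sufficient library, 16.5 in its Brg1-deleted counterpart, 13.4 in the untreated rKO1 library, 11.6 in the Brg1-deleted library after TAM and 7.80 in the Brg1-reexpressed library. All 3 rKO1 libraries were below the other 3, although by total reads alone the untreated one was above WT (log2 fold change of 0.12), and the Brg1-reexpressed library was the lowest, 1.48-fold below its Brg1-deleted partner (1.35 to 1.63). In mosaic females the Brg1-sufficient library was 1.08-fold higher (1.02 to 1.15), and by total reads alone the sign turned, at a log2 fold change of -0.01. A locus on the other strand, Gm44876, covers 9.51% of the exon bases of Il4ra.

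Il21r encodes the IL-21 receptor, which signals mainly through STAT3 and in part through STAT5. It was at 63.7 in the WT library, 55.6 in the mosaic Brg1-sufficient library, 76.2 in its Brg1-deleted counterpart, 44.7 in the untreated rKO1 library, 50.5 in the Brg1-deleted library after TAM and 49.9 in the Brg1-reexpressed library. The 3 rKO1 libraries were again the lowest, although by total reads alone the untreated one was above the mosaic Brg1-sufficient library (log2 fold change of 0.03). Il21r was 1.37-fold higher without BRG1 in mosaic females (1.32 to 1.43), whereas the rKO1 pair differed 1.01-fold with an interval of 0.961 to 1.07 that spans no difference.

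Stat5a (chr11:100859351-100885169, plus strand) and Stat5b (chr11:100780731-100850724, minus strand) lie side by side, and their proteins are close paralogs that act as dimers downstream of the receptors. Stat5a was at 6.23 in the WT library, 10.6 in the mosaic Brg1-sufficient library, 15.3 in its Brg1-deleted counterpart, 9.12 in the untreated rKO1 library, 8.53 in the Brg1-deleted library after TAM and 5.08 in the Brg1-reexpressed library. The level was higher in the library labelled Brg1-deleted of each pair, by 1.45-fold in mosaic females (1.36 to 1.55), 1.68-fold in rKO1 mice (1.51 to 1.86) and 1.38-fold between the aTreg libraries (1.26 to 1.51). These 3 comparisons share no library, and under every alternative the log2 fold change stayed between -1.09 and -0.37. The direction of the third rests on the aTreg labels that Smarca4 goes against, and would be the opposite if those libraries were exchanged. Of 9694 genes tested in mosaic females and rKO1 mice, 28.5% were lower with BRG1 in both, and 3.89% were so by at least 1.45-fold in each. Stat5a also differed 1.70-fold between the 2 controls, being at 6.23 in WT and 10.6 in mosaic Brg1-sufficient cells, so that its levels overlapped when the 3 libraries with BRG1 were set against the 3 without it.

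Stat5b, the more abundant of the 2 per length in every library, was at 14.9 in the WT library, 33.8 in the mosaic Brg1-sufficient library, 36.4 in its Brg1-deleted counterpart, 14.5 in the untreated rKO1 library, 15.4 in the Brg1-deleted library after TAM and 12.7 in the Brg1-reexpressed library. Both mosaic libraries stood at more than 2-fold the other 4, and WT, untreated rKO1 and Brg1-deleted rKO1 libraries could not be ordered beyond counting error. Within mosaic females the difference was 1.08-fold (1.03 to 1.12), within rKO1 mice 1.22-fold (1.13 to 1.32) and between the aTreg libraries 1.42-fold (1.34 to 1.5), each time higher in the library labelled Brg1-deleted. Stat5b per Stat5a was 3.20 with BRG1 and 2.38 without it in mosaic females (intervals 3.02 to 3.40 and 2.27 to 2.50). In rKO1 mice after TAM this ratio was 2.49 with BRG1 and 1.81 without it (2.25 to 2.76 and 1.67 to 1.96), and in aTreg cells it was 3.34 and 3.42 with overlapping intervals (3.08 to 3.61 and 3.18 to 3.67). The WT library, at 2.39, lay with the mosaic Brg1-deleted library. The transcripts of the 2 genes share 3.44% of the 100-base words of Stat5a and 4.79% of those of Stat5b, so that a small part of the reads cannot be assigned to 1 gene.

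Of the feedback genes, Cish encodes CIS, an inhibitor that binds activated cytokine receptors, and carries the STAT5 elements shown above. It was at 24.3 in the WT library, 17.9 in the mosaic Brg1-sufficient library, 21.9 in its Brg1-deleted counterpart, 26.8 in the untreated rKO1 library, 24.6 in the Brg1-deleted library after TAM and 20.9 in the Brg1-reexpressed library. Cish thus stayed within 1.5-fold over the 6 libraries. It was higher in the library labelled Brg1-deleted by 1.23-fold in mosaic females (1.16 to 1.29), 1.18-fold in rKO1 mice (1.11 to 1.25) and 1.27-fold in aTreg cells (1.21 to 1.33), while WT exceeded the mosaic Brg1-sufficient library 1.36-fold. The pseudogene and antisense loci Gm17040 and Gm17041 cover 11.5% of its exon bases.

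Socs1 (chr16:10782240-10785536, minus strand) encodes an inhibitor of the JAK kinases with a known part in Treg stability. It was at 185 in the WT library, 373 in the mosaic Brg1-sufficient library, 327 in its Brg1-deleted counterpart, 278 in the untreated rKO1 library, 193 in the Brg1-deleted library after TAM and 123 in the Brg1-reexpressed library. The levels spanned 3.04-fold from the mosaic Brg1-sufficient to the Brg1-reexpressed library, both of them with BRG1. In mosaic females Socs1 was 1.14-fold higher with BRG1 (1.11 to 1.18), and in rKO1 mice after TAM it was 1.57-fold lower with BRG1 (1.49 to 1.65). The Brg1-deleted cells of treated mice were themselves 1.44-fold below those of untreated mice.

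Socs2 (chr10:95385362-95417180, minus strand) encodes a SOCS protein best known for damping growth hormone signals and is itself a STAT5 target. It was at 18.3 in the WT library, 22.0 in the mosaic Brg1-sufficient library, 17.5 in its Brg1-deleted counterpart, 27.2 in the untreated rKO1 library, 21.9 in the Brg1-deleted library after TAM and 17.9 in the Brg1-reexpressed library. The untreated rKO1 library was the highest, and WT, Brg1-reexpressed and mosaic Brg1-deleted libraries could not be ordered beyond counting error. With BRG1, Socs2 was 1.26-fold higher in mosaic females (1.20 to 1.31) and 1.22-fold lower in rKO1 mice (1.16 to 1.28).

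**Figure D2:**
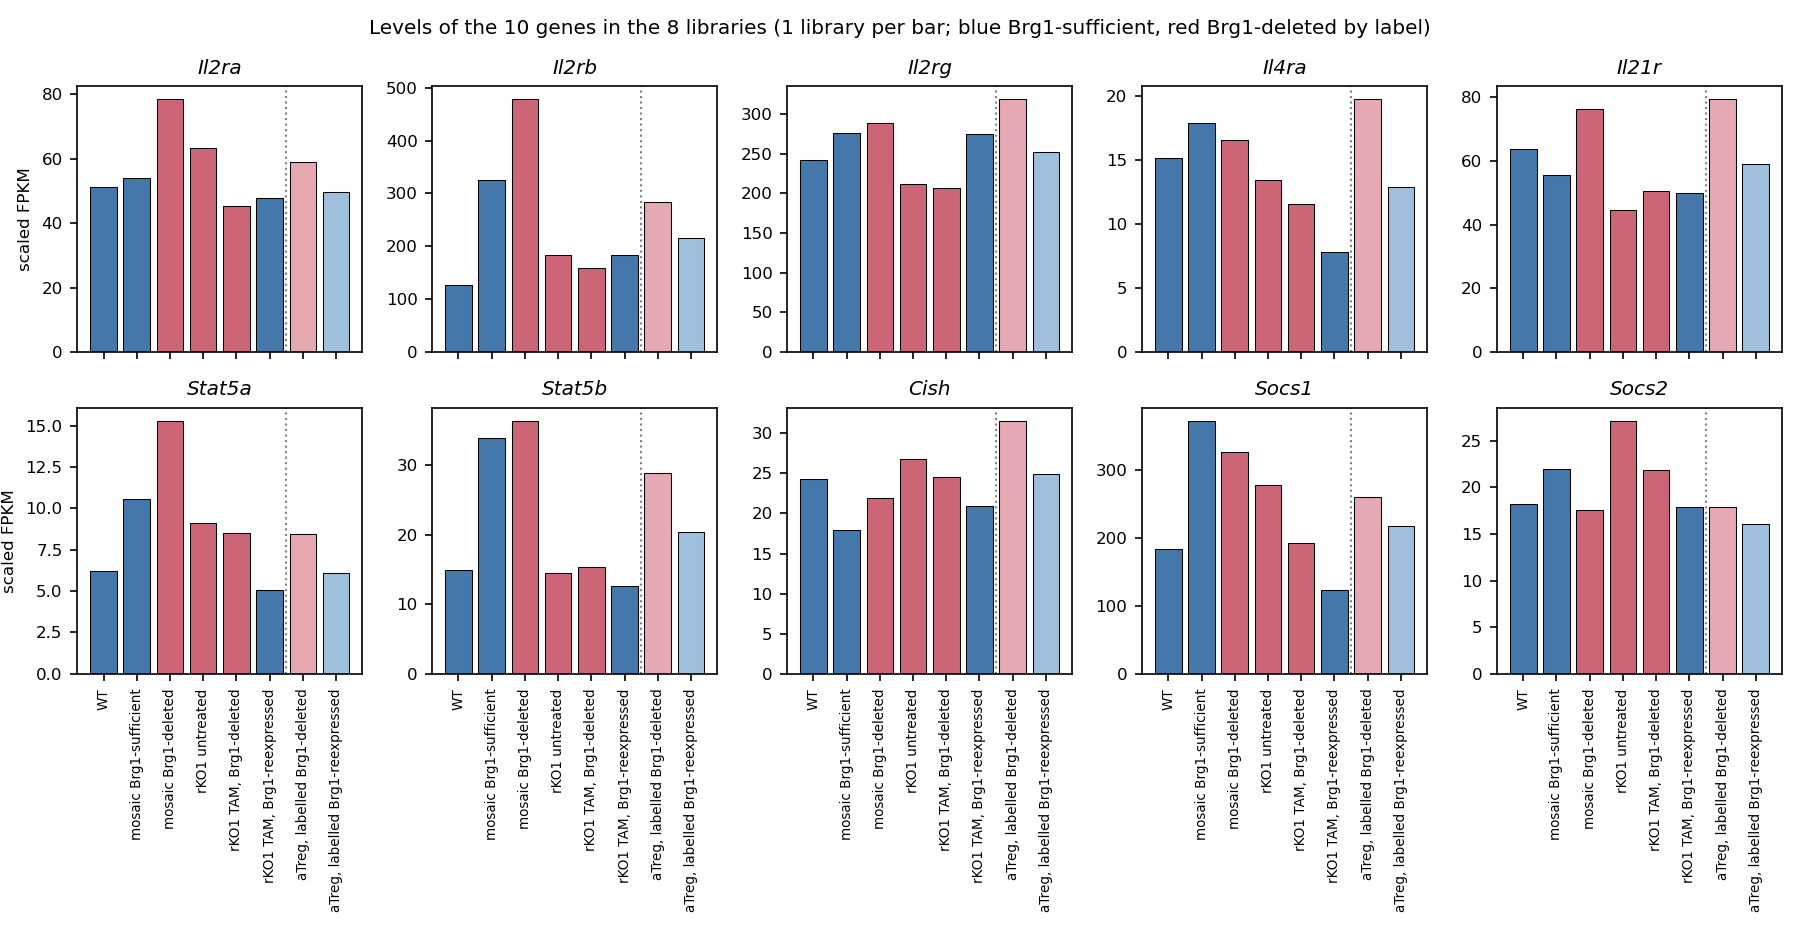
Scaled FPKM of the 10 genes in the 6 total Treg libraries and, right of the dotted line, the 2 aTreg libraries; each bar is 1 library, blue for Brg1-sufficient and red for Brg1-deleted by label. Each panel has its own axis from 0. The mosaic pair stands out for Il2rb (325 and 479) and Stat5b (33.8 and 36.4), and blue and red bars overlap in every panel.

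Taking the 6 total Treg libraries by BRG1 status, the levels of all 10 genes overlapped, with 3 libraries carrying BRG1 set against 3 lacking it. Of 11132 genes with 5 CPM in at least 1 of these libraries, 16.7% did not overlap. Over the same libraries the highest level of a gene was a median of 2.0-fold its lowest, and 50.1% reached 2-fold. Il2rb, Il4ra, Stat5a, Stat5b and Socs1 exceeded 2-fold, at 3.79, 2.29, 3.01, 2.88 and 3.04, and the other 5 members stayed between 1.39 and 1.74.

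Pairs of libraries alike in BRG1 status often differed more than pairs that differed in it. The 2 controls, WT and mosaic Brg1-sufficient, were at least 2-fold apart for 3 of 10 members, beside 9.51% of 10218 tested genes. All 3 were lower in WT, Il2rb by 2.57-fold (2.49 to 2.65), Stat5b by 2.28-fold (2.14 to 2.43) and Socs1 by 2.02-fold (1.95 to 2.10). The summed scaled FPKM of 6 myeloid markers was 310 in WT and 91.9 in mosaic Brg1-sufficient cells, and that of 5 erythroid markers 651 and 198. Socs1 fell short of 2-fold under 5 of the alternatives tried (other scalings and removal of a GC trend), which left 2 members. Foxp3, the lineage factor, was also 7.33-fold lower in WT, at 19.4 against 142 (6.91 to 7.79), and the part of the other cells or of the genotype in these differences was not tested. The Brg1-deleted pair of untreated rKO1 and mosaic cells was at least 2-fold apart for 2 of 10 members, beside 15.3% of 10515 tested genes, namely Il2rb by 2.63-fold (2.57 to 2.69) and Stat5b by 2.51-fold (2.36 to 2.66), both lower in rKO1. The Brg1-reexpressed library lay below the mosaic Brg1-sufficient library at least 2-fold for 4 of 10 members, beside 22% of 10400 tested genes, namely Socs1 (3.04-fold), Stat5b (2.67-fold), Il4ra (2.29-fold) and Stat5a (2.08-fold). Stat5a fell short of 2-fold there under 4 of the alternatives. None of these 4 reached 2-fold against the WT library, where 0 of 10 members and 17.4% of 10386 tested genes did. Nearest was Il4ra, at 1.94-fold below WT.

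**Figure D3:**
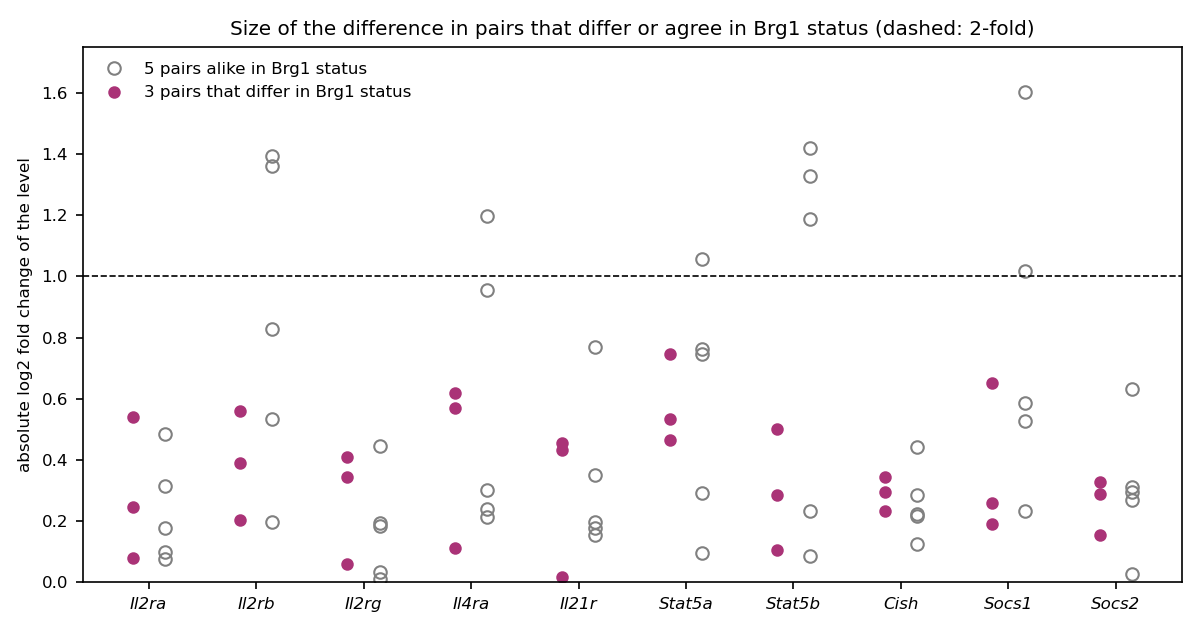
Absolute log2 fold change of each gene in the 3 comparisons that differ in BRG1 status (filled) and in 5 pairs of total Treg libraries alike in it (open), with 2-fold as a dashed line; pairs share libraries with each other and are not replicates. For 9 of 10 genes the largest open point lies above every filled point, with Il2ra (0.54 filled, 0.48 open) as the exception.

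For 9 of the 10 members, at least 1 of the 5 pairs alike in BRG1 status differed more than any of the 3 BRG1 comparisons, as it did for 70.9% of the 9266 genes tested in all 3. With 5 pairs set against 3, the count is a description. The exception was Il2ra, with a largest log2 difference of 0.54 in the BRG1 comparisons and 0.48 in the alike pairs. The alike pairs differ in genotype, inflammation or treatment and share libraries with the BRG1 comparisons, so that they are no measure of replicate error. The closest of them were the untreated and TAM-treated Brg1-deleted rKO1 libraries, with 0 of 10 members and 4.42% of 10372 tested genes at least 2-fold apart. Even there Socs1 and Il2ra were 1.44-fold and 1.40-fold lower after TAM. The untreated rKO1 library was 2-fold from WT for 0 of 10 members, beside 15.8% of 10553 tested genes, with Socs1 (1.51-fold), Socs2 (1.49-fold), Stat5a (1.46-fold) and Il2rb (1.44-fold) higher and Il21r 1.42-fold lower in rKO1. Against the mosaic Brg1-sufficient library it was 2-fold apart for 1 of 10 members, beside 17.5% of 10552 tested genes, with Stat5b 2.33-fold lower in rKO1 (2.19 to 2.48). By total reads alone Stat5b fell short of 2-fold there, at a log2 fold change of -0.87.

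In the aTreg experiment all 10 members were lower in the library labelled Brg1-reexpressed, by between 1.11-fold and 1.54-fold, where 55.1% of tested genes were lower. Each counting interval lay on that side of no difference. Levels in the library labelled Brg1-deleted and in the one labelled Brg1-reexpressed were 59.1 and 49.8 for Il2ra, 283 and 216 for Il2rb, 320 and 252 for Il2rg, 19.8 and 12.9 for Il4ra, and 79.5 and 58.9 for Il21r. Among the receptors Il4ra differed most, 1.54-fold (1.44 to 1.64). The STAT5 genes were at 8.45 and 6.11 (Stat5a) and 28.9 and 20.4 (Stat5b), and the feedback genes at 31.6 and 24.9 (Cish), 260 and 217 (Socs1) and 17.9 and 16.1 (Socs2). Socs2 differed least, 1.11-fold (1.06 to 1.17). Il2rb per Il2rg was close, 0.885 and 0.857, with overlapping intervals (0.866 to 0.905 and 0.837 to 0.877). The exon lengths behind the FPKM values of Il2rb and Socs1 differed between the 2 experiments, at 2785 and 1220 bases in total Treg and 4287 and 2908 bases in aTreg files, so that the levels of these 2 genes must not be set against each other across experiments. The library labelled Brg1-reexpressed also held far more erythroid RNA. The summed scaled FPKM of 5 erythroid markers was 27732 there, 1435 in its partner and between 183 and 827 in the total Treg libraries, and all 5 markers were above the floor in both aTreg libraries. The sum of 6 myeloid markers was 494 there and 331 in its partner, and the sum of the 6 Treg and CD4 T cell markers 1256 and 1197. Of these 6, Cd3e was lower there, at 94.3 against 231, as were Cd4, at 42.0 against 58.3, and Foxp3, at 13.6 against 20.5. The libraries also differed in sex-linked RNA. Xist had 217 reads in the library labelled Brg1-deleted and 834 in the one labelled Brg1-reexpressed, and the 4 Y-linked genes had 2838 and 1356. The part of these differences in the lower levels of the 10 members, with Il2rg on the X chromosome, was not tested.

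The other genes of the pathway were taken as 9 lists of 57 genes. Genes at least 2-fold higher with BRG1 in mosaic females were 7 of 42 tested, beside 4.1% of all tested genes, and 1 was at least 2-fold lower, beside 2.21%. In rKO1 mice after TAM 4 of 44 were higher and 10 lower, beside 7.14% and 5.68%. In aTreg cells 3 of 44 were higher and 1 lower, beside 4.4% and 2.04%. Of the genes so counted, 3 in mosaic females (Il9r, Il3ra and Prdm1), 4 in rKO1 mice (Il2, Il21, Csf2ra and Prf1) and 2 in aTreg cells (Il4 and Prf1) reached 5 CPM only in the library where they were higher, and the counts are a description. Neither the 6 kinases and other STATs (Jak1, Jak2, Jak3, Tyk2, Stat3, Stat6) nor the 4 SOCS box partners (Elob, Eloc, Cul5, Rnf7) had a gene at 2-fold in these 3 comparisons.

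Receptor chains outside the 10 genes reached folds in mosaic females that no member did. Il7r, the IL-7 receptor alpha chain, was at 25.8 with BRG1 and 5.08 without it, or 5.07-fold (4.62 to 5.58). Il9r, the IL-9 receptor, was at 1.18 and 0.0969, with 117 and 11 reads, or 12.1-fold (6.57 to 25.1), and was tested only through its level with BRG1. Crlf2, the receptor chain for TSLP, was at 33.2 and 10.1, or 3.29-fold (2.91 to 3.73). In the WT library, which also had BRG1, Il7r was at 11.2, Il9r at 1.12 and Crlf2 at 18.7. Il7r and Crlf2 thus differed between the controls, WT and mosaic Brg1-sufficient, as well. Crlf2 was the 1 chain at 2-fold in rKO1 mice as well, at 27.7 with BRG1 and 12.9 without it (2.16-fold, 1.89 to 2.47), and it was at 33.4 and 33.7 in the aTreg libraries. Il7r was at 37.8 and 40.1 in the rKO1 pair and at 47.6 in untreated rKO1 mice. Of other receptors that use STAT5, Il3ra was 2.50-fold higher with BRG1 in mosaic females (1.80 to 3.50, 120 and 55 reads), and Csf2ra was 2.13-fold lower with BRG1 in rKO1 mice (1.51 to 3.06, 48 and 112 reads).

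The ligands of these receptors, made largely by other cells, had few reads in most libraries. Il7, Il9 and Il15 stayed below 5 CPM in every library, with at most 64 reads, and Il2 and Il21 passed the filter in the rKO1 pair through the Brg1-deleted library alone, so that no share of ligands is given. In rKO1 mice after TAM, Il2 had 9 reads in the Brg1-reexpressed library and 89 in its Brg1-deleted partner, or 8.94-fold (4.56 to 20.4). Il21 had 3 and 141 reads, or 43.0-fold (14.4 to 211). Il4 had 208 and 832 reads, or 3.66-fold (3.14 to 4.28). Untreated rKO1 cells, also Brg1-deleted, had 11 reads of Il2, 14 of Il21 and 219 of Il4. Scaled, Il4 was at 9.89 there, 39.2 in the Brg1-deleted library after TAM and 10.7 in the Brg1-reexpressed library. Among the rKO1 libraries, Il2, Il4 and Il21 thus stood high only in the Brg1-deleted library after TAM. That library had 122 reads of Ncr1, the natural killer receptor NKp46, and 47 of Klrb1c, against 0 and 4 in its Brg1-reexpressed partner. Both markers were picked after their values were seen, and the removal of cells without CD4 and the CD4 sort are meant to take such cells out. In the mosaic Brg1-sufficient library, with 99 reads of Il2, 71 of Il21 and 25 of Il9, Ncr1 had 104 reads and Klrb1c 29, and in the other 4 total Treg libraries Ncr1 stayed between 0 and 7 reads and Il2 between 9 and 17. The 6 markers of CD8 T or NK cells, summed as scaled FPKM, came to 21.4 and 13.6 in these 2 libraries, the mosaic one first, and to between 6.51 and 13.9 in the other 4, with Ncr1 the 1 marker at 0 reads, in the Brg1-reexpressed library. The 13.6 of the Brg1-deleted library after TAM was thus no higher than the 13.9 of the mosaic Brg1-deleted library. The part of other cells in the ligand reads was not tested. In aTreg cells Il4 was 3.67-fold higher in the library labelled Brg1-reexpressed (2.63 to 5.24, 180 and 44 reads).

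In each of the 3 BRG1 comparisons, all of the 14 genes known to be induced by IL-2 or STAT5 were tested. Of these, 3 were at least 2-fold higher and 1 lower with BRG1 in mosaic females, beside 4.1% and 2.21% of all tested genes. Gzmb, Prdm1 and Bcl2 are among the BRG1 targets that the paper shows from these libraries, so that the counts are a description. Prdm1, which encodes the effector factor BLIMP1, was at 4.22 with BRG1 and 0.750 without it (5.63-fold, 4.51 to 7.09), Foxp3 at 142 and 65.0 (2.19-fold, 2.12 to 2.26), and Gzmb, encoding the cytotoxic protease granzyme B, at 154 and 76.0 (2.03-fold, 1.93 to 2.13). Bcl2, the survival gene, was at 30.5 and 67.2, 2.20-fold lower with BRG1 (2.14 to 2.27). The mosaic libraries also differ in Cre and in the Foxp3 allele expressed, and the part of this in the Foxp3 level was not tested. In the WT library, whose mice carried the Cre, Foxp3 was at 19.4. In rKO1 mice 3 were higher and 3 lower, beside 7.14% and 5.68% of all tested genes. Gzmb was at 1863 with BRG1 and 256 without it (7.28-fold, 7.09 to 7.48), Prdm1 at 12.3 and 3.52 (3.49-fold, 3.09 to 3.96), and Prf1, encoding perforin, at 5.95 and 1.72 (3.44-fold, 2.66 to 4.52). Bcl2 was at 4.17 and 39.6 (9.50-fold lower, 8.74 to 10.3), Lta, encoding lymphotoxin alpha, at 33.8 and 143 (4.24-fold lower, 3.92 to 4.6), and Myc at 21.4 and 44.8 (2.09-fold lower, 1.93 to 2.26). In aTreg cells Gzmb was at 622 and 50.9 (12.2-fold, 11.5 to 12.9) and Prf1 at 3.81 and 1.64 (2.32-fold, 1.77 to 3.08). Over the list, the log2 fold changes had a median of 0.00 in mosaic females, 0.02 in rKO1 mice and -0.16 in aTreg cells, so that members on each side of it offset each other. Bcl6, known to be lowered by IL-2, was not 2-fold apart in mosaic females or aTreg cells and was below 5 CPM in both rKO1 libraries.

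Among the remaining regulators, Socs5 was the 1 of 5 other SOCS genes at 2-fold, in rKO1 mice, at 1.28 with BRG1 and 2.81 without it (2.19-fold lower, 1.70 to 2.84). Of 7 tested phosphatases and adaptors, Irs2, the insulin receptor substrate that also serves the IL-4 receptor, was 2.21-fold lower with BRG1 in rKO1 mice (1.91 to 2.57) and 2.07-fold lower in the aTreg library labelled Brg1-reexpressed (1.76 to 2.43). Sh2b3, the adaptor LNK, was 2.02-fold lower with BRG1 in rKO1 mice (1.62 to 2.53).

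**Figure D4:**
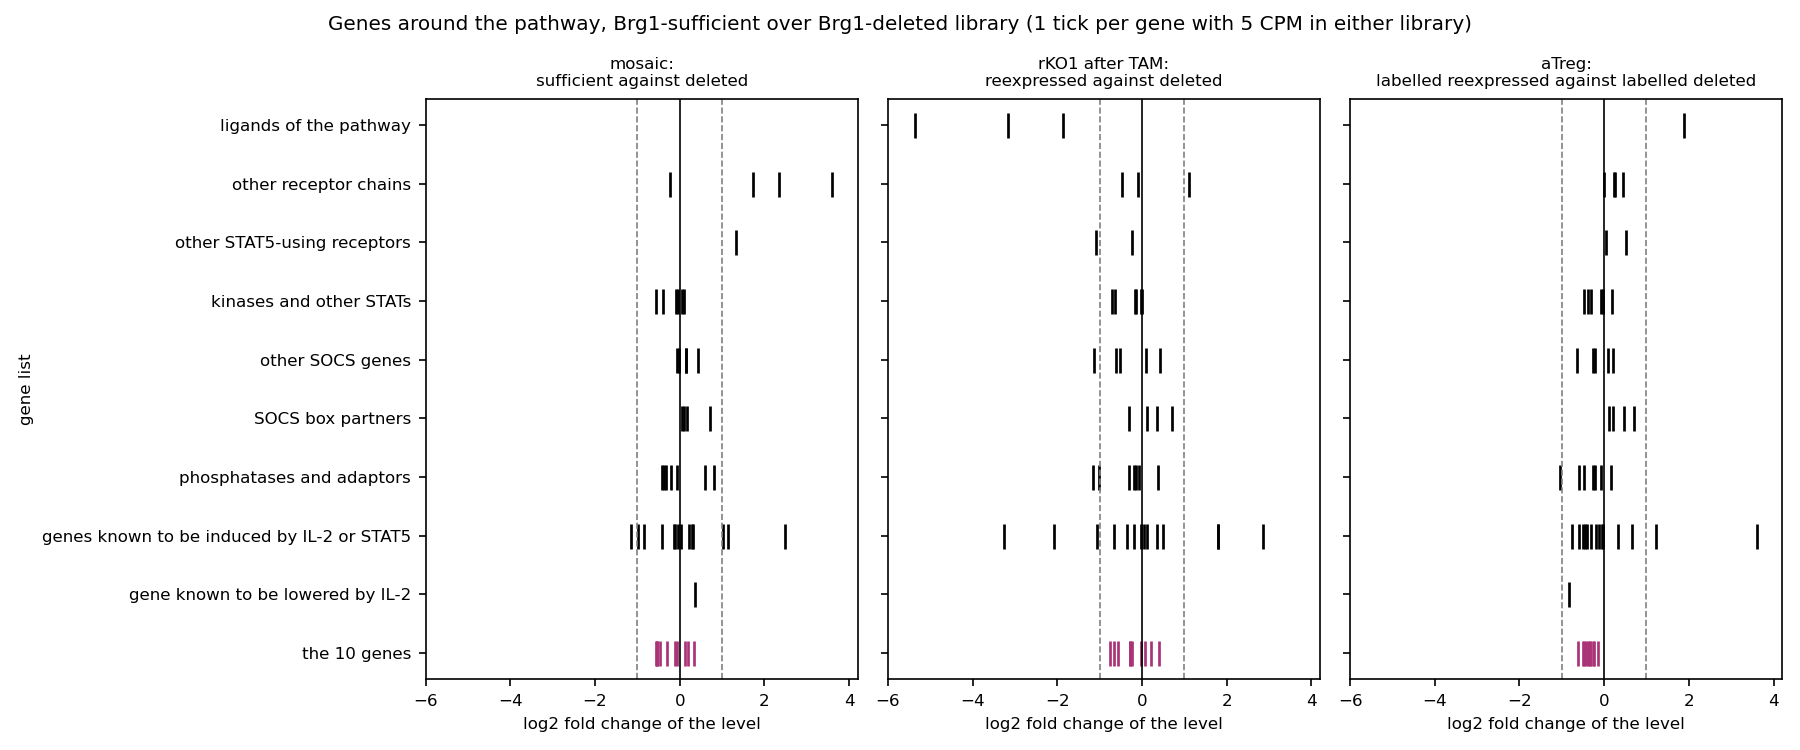
Log2 fold change of the level, Brg1-sufficient over Brg1-deleted library, for the tested genes of 9 lists (black ticks) and the 10 members (colored ticks) in mosaic females, rKO1 mice after TAM and aTreg cells; dashed lines mark 2-fold. The members keep within 2-fold in each panel, while receptor chains in mosaic females, ligands in rKO1 mice and IL-2 or STAT5 induced genes in all 3 reach beyond it.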

How the data were processed

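The authors deposited FPKM values for 53465 Ensembl identifiers in 8 libraries of polyadenylated RNA copied with the SMART-Seq v4 kit, which does not mark strand. The submitters' processing notes name HISAT2 2.0, StringTie 1.3.3b, featureCounts 1.5.0-p3 and mm10. Reads were recovered from the values as FPKM times exon length (GENCODE M21, GRCm38) times a library total that made them whole within 0.02 reads. In the total Treg files 93.4% of 26020 genes came out whole, and a length fitted to the values did this for 1551 more. All 21242 genes with reads did so in the aTreg files. Libraries were scaled by the trimmed mean of M-values, written with NumPy 2.4.6 and pandas 2.3.3 under Python 3.11.15 (SciPy 1.17.1 for the intervals), with a prior of 0.125 reads for fold changes. One read equals 0.0436 to 0.0638 CPM. Scaled FPKM is the deposited FPKM times the total behind it over the scaled library size. The filter of 5 CPM and the 2-fold criterion follow the study's methods. Its adjusted p needs replicates, and none was computed. The script was tested on simulated data. Titles gave the groups. For the aTreg library whose title says Brg1-deleted, the column header says WT and the description BrgF/F. The members and lists were chosen with earlier results of these data known. The named genes are the members and those of the lists at least 2-fold apart in a BRG1 comparison, and Foxp3 between the controls and Ncr1 and Klrb1c were named after their values were seen. Genes with a pattern like a member's were to be named for members 2-fold apart in the mosaic or rKO1 comparison, and there were none. Alternatives were other scalings, no filter, a 1.5-fold criterion, log2(FPKM + 1) and, added after the data were seen, removal of trends with exon length and with GC content.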

Additional observations from a re-analysis of the deposited data

Results flagged for a closer look

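For 6 members the BRG1 difference had opposite signs in mosaic females and in rKO1 mice after TAM, each with a counting interval on its own side of 0. Of 9694 genes tested in both comparisons, 14.1% did the same, and 18.2% of the 4055 that had at least the lowest read count of a member in each of these 4 libraries. With 1 library per condition the difference between the 2 effects was not tested. As the log2 fold change in rKO1 mice minus that in mosaic females, it was 0.62 for Il2ra (0.08 and -0.54), 0.76 for Il2rb (0.20 and -0.56) and 0.47 for Il2rg (0.41 and -0.06), so that all 3 chains of the IL-2 receptor stood relatively higher with BRG1 in rKO1 mice. It was -0.68 for Il4ra (-0.57 and 0.11), -0.84 for Socs1 (-0.65 and 0.19) and -0.62 for Socs2 (-0.29 and 0.33). Scaling by total reads alone takes away the opposite signs of Il2ra, Il2rb and Il4ra.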

How the results depend on the processing

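No paired analysis was possible because each condition has 1 library, and for the same reason no library could be left out. Scaling by total reads alone moved the number of members at least 2-fold apart from 0 to 1 in rKO1 mice after TAM (Stat5a, log2 fold change -1.09) and from 0 to 1 between Brg1-reexpressed and WT libraries, and from 1 to 0 between untreated rKO1 and mosaic Brg1-sufficient libraries. The shares of all tested genes in these comparisons were then 15.9%, 17.2% and 20%. With a 1.5-fold criterion the counts were 2 in rKO1 mice after TAM (beside 30.8% of all tested genes), 1 in aTreg cells (19.9%), 1 for untreated rKO1 against WT (36.6%), 2 against mosaic Brg1-sufficient (38.1%), 5 against mosaic Brg1-deleted (33%), and 2 for Brg1-reexpressed against WT (33.9%). The other 81 counts stayed within 1.5 times. The direction of a member turned in 14 of 700 recomputed differences, 3 of them in BRG1 comparisons (total reads alone), and in none that had reached 2-fold. Of the same 700, 190 fell outside the counting interval of the main setting, so that these intervals do not cover the choice of processing. By total reads alone the median of all tested genes shifted to -0.30 in rKO1 mice after TAM, and the share of 2-fold genes that were higher went from 55.7% to 22.7% there and from 65.0% to 49.5% in mosaic females. Without the filter on low values, genes at least 2-fold apart were 7898 in place of 642 in mosaic females, 8918 in place of 1329 in rKO1 mice and 7632 in place of 647 in aTreg cells, and with log2(FPKM + 1) they were 348, 766 and 311. Depth limits the ligands, not the members, which had at least 573 reads. The cause of these shifts was not tested.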
